A study of Rattus norvegicus and Mus musculus with 3 samples.

Results

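The 10 genes described here, Gfap, Vim, Lcn2, Hspb1, Timp1, Serpina3n, Aspg, Osmr, Cp and Cd44, are commonly used as markers of reactive astrocytes. They were found by symbol, ignoring case, and all 10 were listed in each of the 3 expression tables, among 16251 symbols that the tables share. The libraries were made from hippocampal total RNA and there was 1 per group. They were a 2VO rat and a Sham rat, each aged 3 to 4 months with the genotype labelled WT, and a wild-type mouse from the 3xTg-AD model, aged 6 months and also labelled WT. The abbreviation 2VO commonly stands for tying off both common carotid arteries, which lowers the brain's blood supply, and a Sham animal has the operation without the ligation. No source used here gives the time after surgery, the sex or the number of animals per library. Mice carrying the 3xTg-AD transgenes were not analysed here. With 1 library per group there was no replicate check and no test, so every difference below is between libraries, and the surgery cannot be told apart from the animal, the dissection or the library preparation.

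Astrocytes respond to injury, inflammation and lowered blood supply by enlarging their intermediate filament skeleton and by switching on a set of secreted and stress-induced proteins. In mouse studies many of these genes are induced both by bacterial lipopolysaccharide and by experimental stroke, which is why they are called pan-reactive. Cytokines of the interleukin-6 family, acting through the shared receptor chain gp130 and the transcription factor STAT3, are a well-known route to this state, and Gfap is its classical marker.

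Both rat tables listed 30438 genes, of which 13550 had a mean of at least 1 unit over the 2 rats. The values are normalized by the authors in an unstated unit, and the depth behind each of them is unknown. It is not known whether the unit corrects for transcript length, so ranks, sums and distances over different genes describe the deposited values and not numbers of transcripts. Of 10 hippocampal field markers 9 had a rat mean of at least 1 unit. Spink8 was the exception, at 0.0741 units in 2VO and 0.0696 in Sham but 18.8 in the mouse. Presence is a weak check of the tissue label, since 13550 genes reached this level. Between the 2 rats the field markers differed, with 5 of the 9 lower in 2VO and 4 higher. Wfs1 was 111 units in 2VO and 169 in Sham, Rgs14 was 36.7 in 2VO and 55.0 in Sham, and Grp was 8.60 in 2VO and 4.16 in Sham. All 15 homeostatic astrocyte markers had a rat mean of at least 1 unit.

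Most of the reactive astrocyte genes were lower in the 2VO library than in the Sham library. On the deposited values 6 of the 10, namely Gfap, Lcn2, Hspb1, Timp1, Serpina3n and Aspg, were at least 2-fold lower in 2VO, and none was 2-fold higher. Of the 13550 genes averaging at least 1 unit in the rats, 0.509% were 2-fold lower in 2VO by this measure and 0.731% 2-fold higher, and of the 7071 genes with a mean of 1 to 10 units, where most of the 10 lie, 0.877% were 2-fold lower. Of the other 4 genes, Vim, Cp and Cd44 stood at 85.3% to 110% of their Sham value, so the set did not move as a block. Osmr, with a rat mean of 0.189 units, is too low for its ratio to be read.

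To limit the weight of very low values, log2 ratios of 2VO to Sham were computed after adding 1 unit to each value, so that differences of low genes are understated. On this scale 6 of the 10 genes were at least 1.5-fold lower in 2VO, against 0.967% of the 13550 genes, and 3 of the 10 (Gfap, Lcn2 and Hspb1) were at least 2-fold lower, against 0.199%. None was 2-fold higher, against 0.244%. The median log2 ratio over all 10 genes was -0.84, with a range of -1.95 to 0.14, while the median over the 13550 genes was 0.04 and their SD was 0.24. Among the 13550 genes 5592 were lower in 2VO and 7958 higher. Without Gfap the median of the other 9 was -0.76. Osmr, with a rat mean of 0.189 units, is the 1 gene below the level of 1 unit. Lcn2, Serpina3n and Aspg reached that level in Sham alone, so they passed it through the library in which they were high. These genes were chosen with earlier results of the same libraries known, and the counts describe the 2 libraries only.

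**Figure D1:**
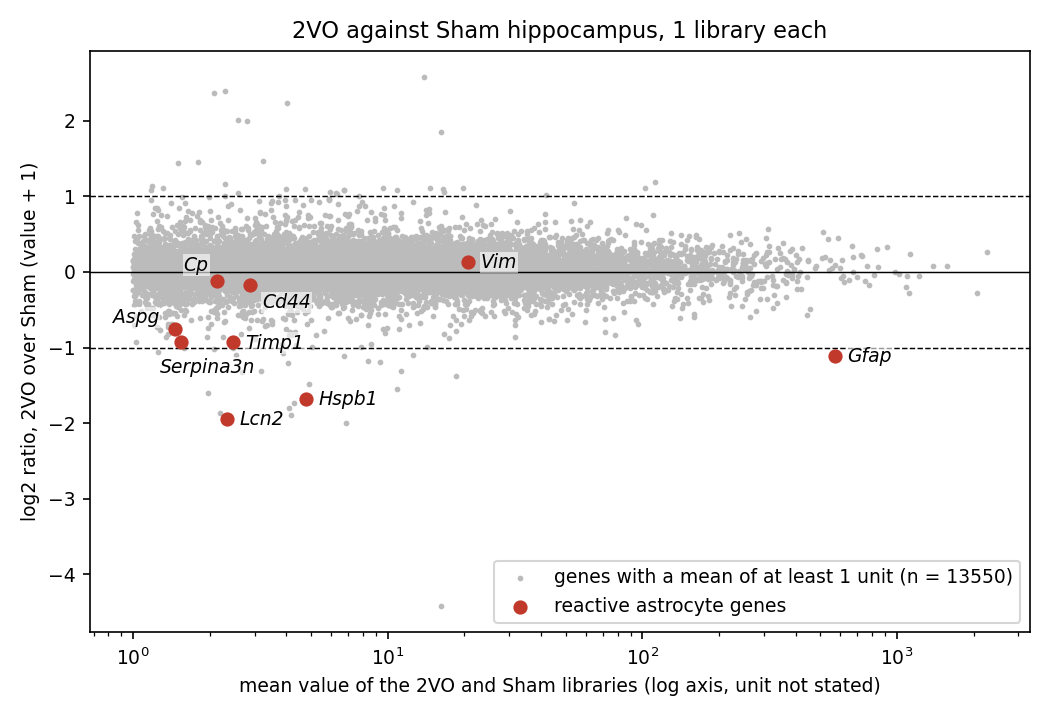
Log2 ratio of 2VO to Sham (1 unit added to both values) against the mean value of the 2 rat libraries on a log axis. Grey points are the 13550 genes averaging at least 1 unit, red points are the reactive astrocyte genes that reach it, and dashed lines mark 2-fold. Lcn2, Hspb1 and Gfap lie beyond 2-fold lower, Timp1, Serpina3n and Aspg close above that line, and Cp, Cd44 and Vim among the bulk of genes.

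The filament genes were divided. Gfap, which encodes the glial fibrillary acidic protein of the astrocyte skeleton, was 360 units in 2VO and 778 in Sham. The 2VO value was 46.3% of the Sham value, a log2 ratio of -1.11. Of the 577 genes averaging at least 100 units, Gfap was the only 1 at least 2-fold lower in 2VO, a share of 0.173%, and 2 were at least 2-fold higher. The next lowest after Gfap, the endoplasmic reticulum gene Wfs1, had a log2 ratio of -0.60. Vim, which encodes vimentin, the filament protein of immature and reactive astrocytes and also of endothelial, mural and ependymal cells, was 21.8 units in 2VO and 19.7 in Sham, a log2 ratio of 0.14. Synm, the gene of the filament linker synemin, was 11.7 units in 2VO and 8.82 in Sham, a log2 ratio of 0.37. Nes, the nestin gene of neural precursors and some reactive astrocytes, was 0.553 units in 2VO and 0.916 in Sham. Gfap and Vim, whose proteins assemble together in reactive astrocytes, thus differed in this pair of libraries. Gfap was lower in 2VO, while Vim lay among the bulk of genes, whose median log2 ratio was 0.04.

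Gfap was also low in 2VO relative to the other genes of astrocytes. Divided by each of 15 homeostatic astrocyte markers in the same library, a ratio that no scaling between libraries can alter, Gfap was lower in 2VO for 15 of 15 markers. The 2VO ratio was 37.0% to 53.7% of the Sham ratio, with a median of 46.9%. All 15 ratios share the same Gfap values, so they restate 1 difference and are not 15 separate observations. Set against Aqp4, the water channel of astrocyte end-feet, Gfap was 4.30 in 2VO and 8.92 in Sham. Set against Slc1a2, the main glutamate transporter, it was 1.93 in 2VO and 4.13 in Sham. The geometric mean of the 15 markers was 66.4 units in 2VO and 65.7 in Sham, so the astrocyte markers as a group were close to level between the 2 libraries. In whole tissue, fewer cells of a type and less RNA per cell cannot be told apart, and whether astrocyte number differed was not tested. None of the 15 was 1.5-fold apart. Aldoc, a glycolytic aldolase, lay furthest from 0 at 379 units in 2VO and 302 in Sham, and Slc4a4, a bicarbonate transporter, was the lowest at 17.8 units in 2VO and 20.6 in Sham.

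Among the genes of secreted proteins, Lcn2 differed most. It encodes lipocalin-2, which binds bacterial iron carriers and is released by reactive astrocytes and by neutrophils. Lcn2 was 0.372 units in 2VO and 4.28 in Sham, so the 2VO value was 8.68% of the Sham value, and its log2 ratio of -1.95 was the third lowest of the 13550 genes. Timp1, an inhibitor of matrix metalloproteinases, was 1.39 units in 2VO and 3.55 in Sham, or 39.1% of the Sham value. Serpina3n, a secreted inhibitor of serine proteases, was 0.754 units in 2VO and 2.33 in Sham, or 32.3%. Lcn2, Timp1 and Serpina3n thus all lay well below Sham, whereas the ferroxidase gene did not. Cp, which encodes ceruloplasmin, the copper enzyme that loads iron onto transferrin and that astrocytes carry at the membrane, was 2.01 units in 2VO and 2.27 in Sham, or 88.5%.

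Several features of these genes bear on how their values can be read. Timp1 lies within Syn1, the gene of the vesicle protein synapsin I, on the opposite strand of the X chromosome, and no source used here states that counting used strand, so reads of the 2 genes may not have been told apart. Syn1 was higher in 2VO, at 166 units against 118 in Sham, while Timp1 was lower. Cp overlaps Hps3 on the opposite strand, and Hps3 was 4.27 units in 2VO and 4.06 in Sham. Serpina3n belongs to a family of closely related neighbouring copies, among which reads can be split. Of the relatives listed under that name in the rat tables, Serpina3m was listed at 0 in both libraries, and Serpina3c was listed at 0 in 2VO and at 0.0159 units in Sham. Apart from Timp1 and Cp, the genes overlap no other gene in the RefSeq annotation of the assembly GRCr8.

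The intracellular stress and metabolic genes were both lower in 2VO. Hspb1 encodes a heat shock protein of the small class, which binds unfolded proteins and actin and is also made by vascular cells. It was 1.75 units in 2VO and 7.78 in Sham. The 2VO value was 22.4% of the Sham value, a log2 ratio of -1.68. Aspg, an enzyme with asparaginase activity, was 0.834 units in 2VO and 2.096 in Sham, or 39.8%, a log2 ratio of -0.76.

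Of the receptor genes, only Cd44 gave a ratio that can be read. Cd44, the surface receptor for the matrix polysaccharide hyaluronan, was 2.64 units in 2VO and 3.10 in Sham, or 85.3%, a log2 ratio of -0.17. Osmr, the receptor chain for oncostatin M, was 0.203 units in 2VO and 0.174 in Sham. At these levels, and with unknown depth, the Osmr values give no ratio that can be read.

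**Figure D2:**
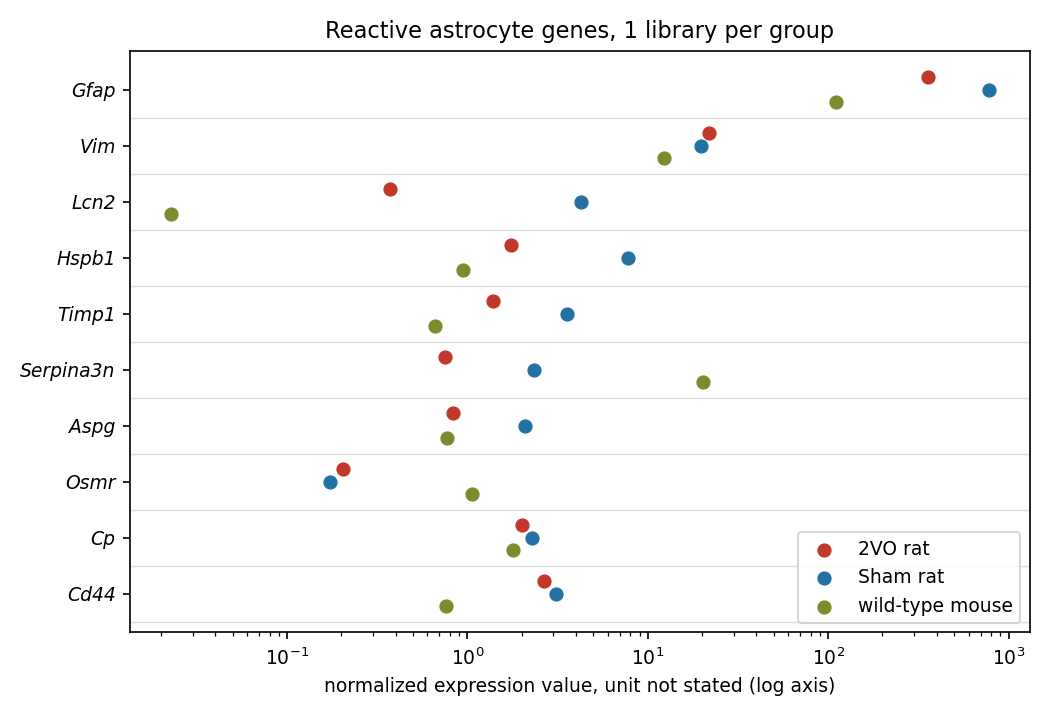
Normalized expression value of each reactive astrocyte gene on a log axis, with 1 point per library for the 2VO rat, the Sham rat and the wild-type mouse. The Sham point lies furthest right for 7 of the 10 genes, and the mouse point lies furthest left for 8.

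Promoter windows are shown for Gfap, Lcn2 and Hspb1, the genes at least 2-fold lower on the log2 scale, and for Serpina3n, the 1 gene with a STAT match. The window of Timp1, which lies within Syn1, and those of the other genes were searched but are not printed. The windows run from 250 bases before to 50 bases after the annotated start, 5′ to 3′ on the gene's strand, from RefSeq on the rat assembly GRCr8, which is not the build named by the submitters. All 10 genes had an entry. None of the 4 windows printed here overlaps another gene. Capitals mark matches to the motifs TTCNNNGAA (STAT), GAANNTTC (heat shock element) and TGANTCA (AP-1), with N for any base, and to the NF-kB motif, GGGA and CC with any 4 bases between them. All were searched on both strands.
Gfap (chr10:88361612-88361911, - strand): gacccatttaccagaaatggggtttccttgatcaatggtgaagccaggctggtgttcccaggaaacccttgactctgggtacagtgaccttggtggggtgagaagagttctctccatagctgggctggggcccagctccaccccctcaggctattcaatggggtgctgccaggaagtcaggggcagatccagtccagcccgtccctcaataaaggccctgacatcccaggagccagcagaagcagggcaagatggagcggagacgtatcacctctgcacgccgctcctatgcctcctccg
Lcn2 (chr3:36081731-36082030, - strand): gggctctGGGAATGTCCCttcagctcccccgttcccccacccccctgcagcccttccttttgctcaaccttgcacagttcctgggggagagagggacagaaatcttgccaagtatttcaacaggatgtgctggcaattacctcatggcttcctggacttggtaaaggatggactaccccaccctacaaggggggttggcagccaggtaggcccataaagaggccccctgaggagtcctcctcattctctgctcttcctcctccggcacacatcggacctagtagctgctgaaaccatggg
Hspb1 (chr12:26432252-26432551, - strand): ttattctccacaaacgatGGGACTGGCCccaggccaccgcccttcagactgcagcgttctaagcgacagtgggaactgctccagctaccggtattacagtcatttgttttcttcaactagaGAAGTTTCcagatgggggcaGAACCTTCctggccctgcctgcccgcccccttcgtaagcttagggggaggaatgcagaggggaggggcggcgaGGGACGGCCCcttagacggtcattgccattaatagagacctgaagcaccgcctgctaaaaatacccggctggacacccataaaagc
Serpina3n (chr6:129088142-129088441, + strand): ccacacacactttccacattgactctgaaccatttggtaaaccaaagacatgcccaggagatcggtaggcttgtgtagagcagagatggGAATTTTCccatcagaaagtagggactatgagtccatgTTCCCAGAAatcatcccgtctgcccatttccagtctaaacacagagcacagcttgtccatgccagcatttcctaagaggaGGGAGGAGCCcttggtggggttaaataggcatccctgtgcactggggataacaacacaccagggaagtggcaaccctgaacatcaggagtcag

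The motifs were not shared across the genes. The STAT motif was found in 1 of the 10 windows, that of Serpina3n, where TTCCCAGAA begins 123 bases before the start. It was found in 8.87% of all 33469 promoter windows of the table. The heat shock element was found in 2 of the 10, Hspb1 and Serpina3n, against 8.59% of all windows. Hspb1 holds it as GAAGTTTC and GAACCTTC, beginning 129 and 109 bases before the start. AP-1 was found in Aspg and Osmr, 2 of the 10, against 7.33% of all windows. NF-kB was found in Lcn2, Hspb1, Serpina3n and Vim, 4 of the 10, against 19.3%. The median share of G and C bases was 59.3% in the 10 windows and 51.7% in all windows. All windows are therefore not a like background for this motif, which is rich in G and C. In Lcn2 the matches GGGAATGTCC and GGAATGTCCC overlap, 1 on each strand, and begin 243 and 242 bases before the start. The windows of Gfap, Timp1, Cp and Cd44 held none of these letters, so the lower genes Gfap and Timp1 and the level genes Cp and Cd44 were alike in this. A match is a string of letters and no evidence of binding, and its absence covers this window only.

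Further genes of the reactive state were mostly closer together in the 2 rats. Of the 3 further pan-reactive genes, only S1pr3, a sphingosine phosphate receptor, had a rat mean of at least 1 unit, at 1.90 units in 2VO and 2.79 in Sham. Steap4, a metalloreductase, was 0.592 units in 2VO and 0.0712 in Sham, opposite to most of the pan-reactive genes. Cxcl10, an interferon-induced chemokine, was 0.145 units in 2VO and 0.348 in Sham. Genes induced in mouse astrocytes mainly by lipopolysaccharide, often called A1, had a median log2 ratio of -0.09 over 8 measured genes of 13, with 1 at least 1.5-fold lower and 0 higher. That gene was Psmb8, an immunoproteasome subunit, at 2.51 units in 2VO and 4.53 in Sham. Complement C3, the marker most used for this class, was 6.13 units in 2VO and 9.55 in Sham, a log2 ratio of -0.57, close to 1.5-fold. Genes induced mainly by stroke, often called A2, had a median of -0.20 over 4 measured genes of 12, again with 1 at least 1.5-fold lower and 0 higher. That gene was Clcf1, which was also past 2-fold, with a log2 ratio of -1.61 that lies further from 0 than that of Gfap. Over all 13550 genes the median was 0.04, with 0.967% at least 1.5-fold lower and 1.51% higher.

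In the signalling route above these genes, the gene furthest from 0 encodes a ligand. Clcf1, a ligand of the interleukin-6 family that signals through the receptor of ciliary neurotrophic factor and also belongs to the A2 list, was 0.466 units in 2VO and 3.47 in Sham. It reached 1 unit in Sham alone, so it counts as measured through the library in which it was high. Clcf1 overlaps Rad9a, a DNA damage checkpoint gene, which was 5.42 units in 2VO and 5.41 in Sham. Il6, Lif, Osm and Il11 stayed below a mean of 1 unit. Cntf was 3.17 units in 2VO and 2.55 in Sham, and Ctf1 was 0.919 in 2VO and 1.08 in Sham. The 5 measured receptor chains had a median log2 ratio of 0.17, with 4 higher and 1 lower and none 1.5-fold apart. Among them Cntfr, the partner of Clcf1, was 35.5 units in 2VO and 29.3 in Sham, and Lifr was 2.70 in 2VO and 1.97 in Sham. The 8 JAK kinases and STAT factors were evenly divided, with a median of 0.01 and none 1.5-fold apart. Stat3 was 9.87 units in 2VO and 11.7 in Sham. Of the 4 measured inhibitors 1 was 1.5-fold higher, Socs2, at 2.94 units in 2VO and 1.38 in Sham. Socs3, the feedback inhibitor that STAT3 induces, was 0.476 units in 2VO and 0.706 in Sham, below a mean of 1 unit. Clcf1 apart, the measured ligands, receptors and factors of the route therefore lay much closer together than Gfap, Lcn2 and Hspb1 did. Those below a mean of 1 unit, Il6, Lif, Osm, Il11 and Osmr among them, give no ratio that can be read.

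Most measured relatives and partners of single genes were less than 1.5-fold apart between the 2 rats. Timp2 was higher in 2VO where Timp1 was lower, at 50.6 units in 2VO and 36.5 in Sham. Timp3 and Timp4 were only slightly higher, with log2 ratios of 0.12 and 0.14. Timp4, at 6.48 units in 2VO and 5.80 in Sham, lies within Syn2 on the opposite strand, and Syn2 was 159 units in 2VO and 123 in Sham. The 8 measured metalloproteinases had a median of -0.11, with 6 lower and 2 higher in 2VO, and none was 1.5-fold apart. Mmp2, a gelatinase, was 1.46 units in 2VO and 2.01 in Sham. Of the 5 other small heat shock proteins measured none was 1.5-fold apart, and Cryab, the alpha-B crystallin gene that astrocytes and oligodendrocytes express, was 36.2 units in 2VO and 31.7 in Sham. The 10 measured genes of heat shock factor and its classical chaperone targets had a median of 0.06, with Hspa8 at 471 units in 2VO and 421 in Sham. Hspb1 was thus the 1 gene of both lists past 1.5-fold. Of the measured CD44 ligands and hyaluronan enzymes 1 of 8 was past 1.5-fold, Spp1, the osteopontin gene of reactive microglia, at 0.669 units in 2VO and 2.04 in Sham, which also reached 1 unit in Sham alone. In the lipocalin and iron list, Lcn2 was the 1 gene of 8 past 1.5-fold. Its receptor gene Slc22a17 was 343 units in 2VO and 333 in Sham, and Tf, the transferrin gene, was 377 in 2VO and 316 in Sham.

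**Figure D3:**
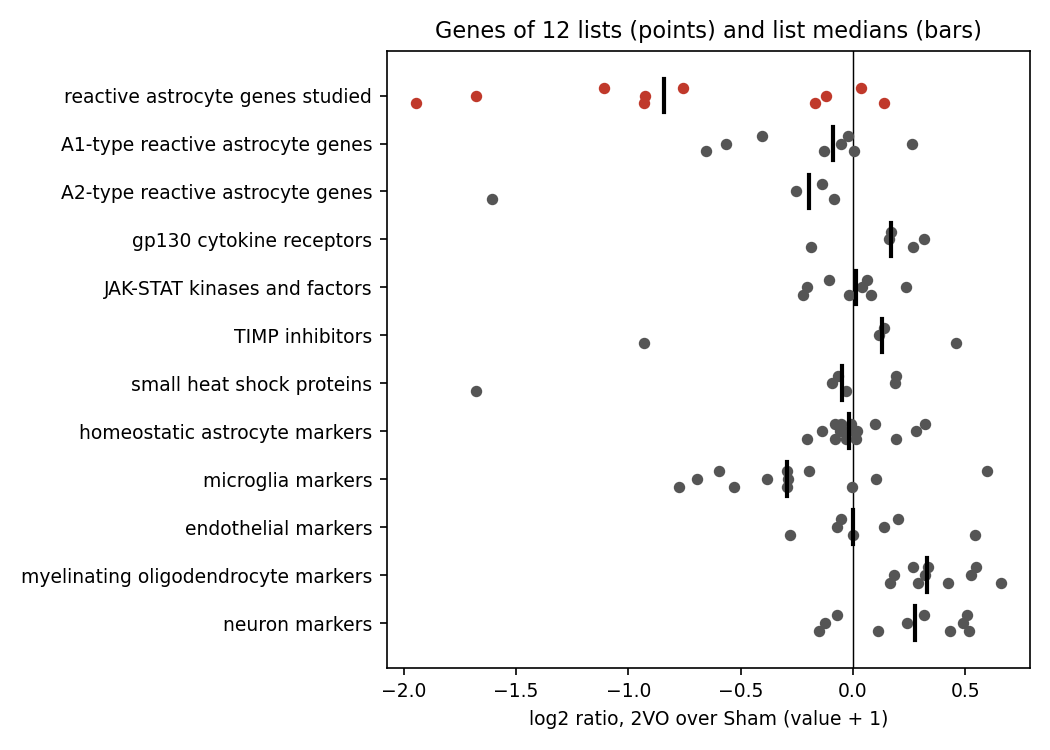
Log2 ratio of 2VO to Sham for the 10 reactive astrocyte genes (red) and for the genes of related and cell type lists with a rat mean of at least 1 unit (dark grey), with the list median as a bar. The median was -0.84 for the reactive astrocyte genes, -0.02 for homeostatic astrocyte markers and -0.29 for microglia markers, and Clcf1 is the low point of the A2-type genes.

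Several of the 10 genes are also made by other cells, so markers of those cells were set beside them. Over all 13550 genes 5592 were lower in 2VO and 7958 higher, so higher in 2VO was the commoner direction. Microglia markers were lower in 2VO for 10 of 12 genes, with a summed level of 176 units in 2VO and 223 in Sham. Aif1, C1qa and C1qc were past 1.5-fold lower and P2ry12 past 1.5-fold higher. Neutrophil markers, relevant to Lcn2, summed to 1.27 units over 9 genes in 2VO and 1.75 in Sham. Elane and Retnlg were listed at 0 in both libraries, and S100a8 and Cxcr2 were listed at 0 in 2VO. Endothelial markers, relevant to Vim and Hspb1, had a median of -0.0004 and mural cell markers of 0.04, with none 1.5-fold apart in either list. The endothelial genes summed to 55.6 units in 2VO and 50.4 in Sham, and the mural genes to 31.5 in 2VO and 28.4 in Sham. Ependymal markers were higher in 2VO for 4 of 5 measured genes. Among them Ak7, at 1.76 units in 2VO and 0.826 in Sham, reached 1 unit in 2VO alone. All 10 myelinating oligodendrocyte markers were higher, with sums of 4900 units in 2VO and 3909 in Sham. Choroid plexus markers summed to 6.99 units in 2VO and 1.75 in Sham, of which Ttr made up 4.75 in 2VO and 0.434 in Sham. Of the 8 only Ttr and Folr1 had a rat mean of at least 1 unit, and both reached that level in 2VO alone. Below it, Kl, Aqp1, Kcnj13 and Sostdc1 were lower in 2VO, and Clic6 and Otx2 were higher. Neuron markers had a median of 0.28 and meningeal fibroblast markers of 0.13. Most microglia markers thus went the same way as most of the reactive astrocyte genes. Myelin markers, most measured ependymal and neuron markers and the 2 measured choroid plexus markers went the opposite way. That was also the commoner direction over all genes. The other choroid plexus markers were too low for a ratio to be read. The part of any of these cell types in the result was not tested.

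Beside the rats, the wild-type mouse library had the lowest value of the 3 for 8 of the 10 genes. It differs in species, age and gene models, so values are set side by side with no ratio called. Gfap was 360 units in 2VO, 778 in Sham and 110 in the mouse. Lcn2 was 0.372 in 2VO, 4.28 in Sham and 0.0227 in the mouse, and Hspb1 was 1.75, 7.78 and 0.950 in the same order of libraries. Timp1 was 1.39 in 2VO, 3.55 in Sham and 0.658 in the mouse, and Aspg was 0.834, 2.096 and 0.773. In these 5 genes the 2VO value lay between the other two, and in Aspg it lay close to the mouse. Cp, at 1.79 units in the mouse, varied least over the 3 libraries, and Vim and Cd44 were 12.3 and 0.757 units in the mouse. The exceptions were Serpina3n, at 20.2 units in the mouse against 0.754 in 2VO and 2.33 in Sham, and Osmr, at 1.06 in the mouse against 0.203 in 2VO and 0.174 in Sham. Serpina3n has more family members in mouse, and among the others listed there Serpina3g was 0.892 units.

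Ranks within each library, which do not depend on the scaling between libraries, placed the Sham library highest for 7 of the 10 genes, as the values did, and the mouse lowest for 6. Among the 16251 shared symbols the median rank percentile of the 10 genes was 33.7 in 2VO, 43.0 in Sham and 31.4 in the mouse. Hspb1 stood at the percentile 34.8 in 2VO, 58.7 in Sham and 31.0 in the mouse, and Lcn2 at 22.9, 46.9 and 11.8. Serpina3n stood at 27.6 in 2VO, 38.5 in Sham and 81.9 in the mouse, the widest spread of the 10. Gfap ranked near the top of every library, at 99.6 in 2VO, 99.9 in Sham and 97.9 in the mouse.

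**Figure D4:**
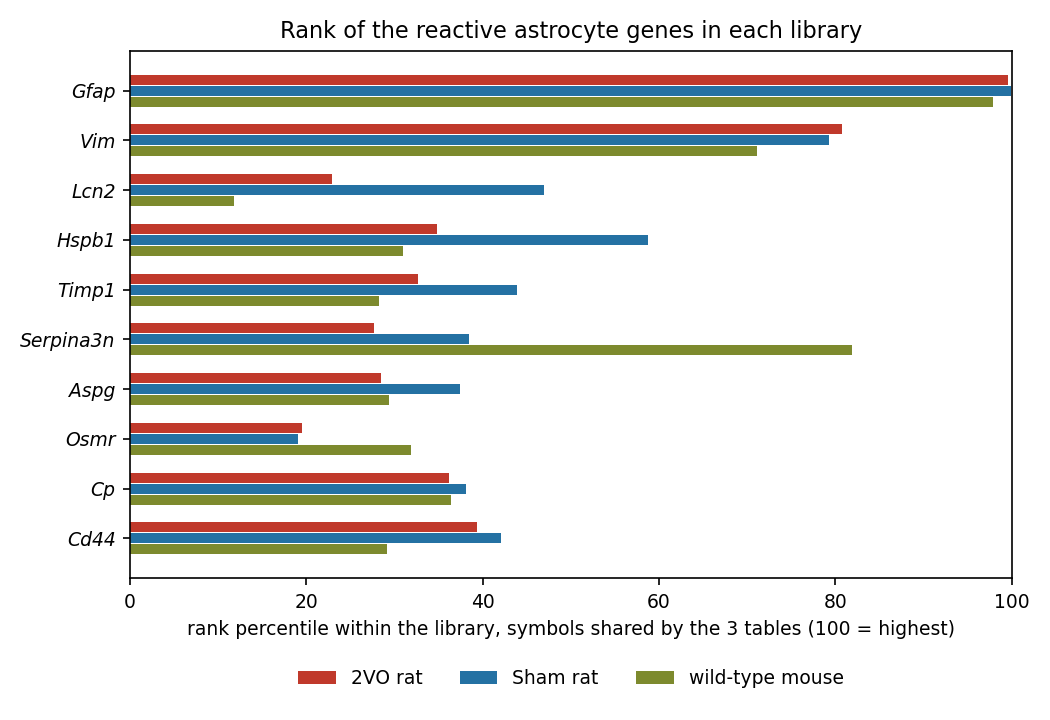
Rank percentile of each reactive astrocyte gene within its library, among 16251 symbols shared by the 3 tables, as bars that start at 0 for the 2VO rat, the Sham rat and the wild-type mouse. Hspb1 and Lcn2 show the widest gaps between the 2 rats, and Serpina3n the widest gap between mouse and rat.

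No named gene with a shared symbol lay close to Gfap in level over the 3 libraries. The distance used compares levels, so a gene of like pattern but much lower level counts as far. By Euclidean distance of log2(value + 1) over the 3 libraries, the nearest of 16248 shared symbols was Mt3, a metallothionein of brain, at a distance of 0.96 log2 units. Mt3 was 378 units in 2VO, 533 in Sham and 190 in the mouse. The next were Camk2n1, an inhibitor of calmodulin-dependent kinase II, at 1.08, Ptms, the parathymosin gene, at 1.12, Eef1a2, a translation factor of neurons and muscle, at 1.23, and Bsg, the basigin gene, at 1.29. Their log2 ratios of 2VO to Sham ran from -0.49 for Mt3 to 0.19 for Eef1a2, all nearer 0 than the -1.11 of Gfap. With 3 libraries this likeness is a description of levels only.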

How the data were processed

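Hippocampal RNA was sequenced in 1 library per group, with TruSeq RNA Library Prep Kit v2 libraries from TRIzol-extracted RNA, per the labels' protocols. The submitters' processing notes name DESeq2, HISAT2 2.1.0 and fastp 0.21.0, with the builds mRatBN7.2 and GRCm39, and give them no roles. The deposited tables hold 1 normalized expression signal per gene, with its unit, quantifier and filters not stated by any source used here. Values were used as deposited, without rescaling. Depth is unknown, so no counting interval is given.

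Log2 ratios of 2VO to Sham used 1 added unit. Genes past 1.5-fold and 2-fold were counted over genes with a rat mean of at least 1 unit. The 10 genes were described whether or not they reached it. No test was run. The members and lists were chosen with earlier results of these data known. Genes named from each list were those past 1.5-fold or otherwise the 3 furthest from 0; other names illustrate a role and were picked with their values known. Some genes of that rule are given only as counts. Alternatives were scaling by median of ratios or upper quartile, equal sums without the 50 most abundant genes, centring on a lowess trend (span 0.3), 0.25 or 4 added units, and other level filters. Of the rat names 20182 of 30438, and all 10 genes, matched a RefSeq GRCr8 symbol. The calculation was tested on simulated data, with recovery required only of genes averaging at least 10 units. Most of the 10 genes lie below that level. Python 3.11.15, pandas 2.3.3, numpy 2.4.6, statsmodels 0.14.6 and matplotlib 3.10.9 were used.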

Additional observations from a re-analysis of the deposited data

How the results depend on the processing

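No paired analysis was possible because each group holds 1 library, and for the same reason no replicate could be left out. The unknown depth limits most the genes below a few units, all of the 10 except Gfap and Vim. Under the 3 scalings and the lowess centring the median log2 ratio of the 10 genes stayed within 0.1 of -0.84, and 8 genes stayed lower and 2 higher. The 2 higher were Vim and Osmr, and Osmr is too low for its ratio to be read. With 0.25 units added the median was -1.11, with 6 of the 10 genes 2-fold lower; with 4 units added it was -0.37, with 3 of them 1.5-fold lower. Over the 2 genes averaging at least 5 units, Gfap and Vim, it was -0.49, with 1 gene past 1.5-fold and past 2-fold. Over all genes, 131 were 1.5-fold lower and 205 higher in 2VO, and 27 and 33 were 2-fold lower and higher. At 1.5-fold the share higher was 61.0%, or 48.9% (159 higher and 166 lower) after upper-quartile scaling. With 0.25 units added the 1.5-fold counts were 215 lower and 342 higher and the 2-fold counts 54 and 74. With 4 units added they were 50 and 70, and 10 and 8. Over genes averaging at least 5 units they were 59 and 97, and 10 and 17. Without a filter the choroid plexus median was -0.0017, against 1.25 over the 2 measured genes. Gfap ran from -1.17 to -1.10 over the 6 settings that keep every gene, and was 2-fold lower in each. Lcn2 ran from -2.87 to -0.92, Hspb1 from -2.01 to -1.04, Timp1 from -1.21 to -0.49, Serpina3n from -1.36 to -0.41 and Aspg from -1.11 to -0.33. With 4 units added Timp1, Serpina3n and Aspg were no longer 1.5-fold lower and Lcn2 no longer 2-fold lower.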
